A study of Mus musculus with 19 samples.

Results

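The messenger RNAs of 6 genes that have been reported as targets of the microRNA miR-148a were followed in RNA sequencing of the CA1 region of the mouse dorsal hippocampus. The genes were *Cpt1a*, *Rock1*, *Bcl2l11*, *Ppargc1a*, *Gadd45a* and *Camk2a*, taken by name as reported targets, and they make up 6 of the 48709 genes counted. All 6 passed the filter on low counts, as did 19286 genes in all. The 19 libraries came from male C57B/6J mice, each labelled as a separate sample, in 3 groups. Young mice of 3 months (n = 6) and old control mice of 16.5 months (n = 6) received control oligonucleotides, and old anti-miR-mix mice of 16.5 months (n = 7) were given oligonucleotides that inhibit 3 microRNAs, miR-148a-3p together with miR-146a-5p and also miR-181a-5p. The oligonucleotides were packed in lipid nanoparticles and injected into the dorsal hippocampus on both sides, so all 3 groups underwent the injection. The inhibitors were given only as a mixture, and only to old mice, so a difference cannot be assigned to the inhibitor of miR-148a-3p alone. The question was whether messenger RNAs that miR-148a is reported to repress were higher once it was inhibited, and whether they differed with age.

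A microRNA guides the silencing complex to messenger RNAs whose 3′ untranslated region (3′UTR) pairs with its seed, the bases at positions 2 to 8, and the bound transcript is degraded or translated less. Inhibitory oligonucleotides pair with the microRNA itself and are designed to keep it from its targets. Because repression can act on translation, a messenger RNA level reports only part of such regulation. The 6 genes belong to different pathways. *Cpt1a* encodes carnitine palmitoyltransferase 1A, which commits long-chain fatty acids to mitochondrial oxidation. *Ppargc1a* encodes PGC-1α, a transcriptional coactivator of mitochondrial biogenesis. *Rock1* encodes a kinase that acts on the actin cytoskeleton. *Bcl2l11* encodes BIM, a pro-apoptotic protein of the BCL-2 family, and *Gadd45a* encodes a growth arrest and DNA damage response protein. *Camk2a* encodes the α subunit of calcium/calmodulin-dependent kinase II, an abundant kinase of excitatory synapses that is required for long-term potentiation.

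The mature sequences of miR-148a-3p and of the other 2 members of its family are shown because all 3 share the seed by which the sites below are recognised. They are written 5′ to 3′ with the seed in capitals and were taken from RefSeq (GRCm38.p6).
miR-148a-3p: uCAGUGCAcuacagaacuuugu
miR-148b-3p: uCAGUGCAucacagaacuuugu
miR-152-3p: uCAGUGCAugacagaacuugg
Counted from 1 at the 5′ end, with the base of miR-148a-3p first, miR-148b-3p differed by C9U and U10C, and miR-152-3p by C9U, U10G and U20G. The inhibitor of miR-148a-3p is shown with the control oligonucleotide, as the study lists them, because it decides which family members can be bound. Capitals mark the bases opposite the seed.
inhibitor of miR-148a-3p: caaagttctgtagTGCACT
control for inhibitor: taacacgtctatacgccca
The inhibitor spanned positions 3 to 21 of miR-148a-3p and was complementary to it at 19 of 19 positions. Over the same positions it was complementary to miR-148b-3p at 17 and to miR-152-3p at 16. The miRNAs themselves were not measured in these libraries of polyadenylated RNA. At most 1 read per library was counted for the genes *Mir148a* and *Mir148b*, and 0 for *Mir152*. The study itself measured the 3 inhibited microRNAs by quantitative PCR after the behavioural tests. It reports that they were still lower in the injected CA region and unaffected in the dentate gyrus.

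The seed of miR-148a-3p is complementary to TGCACTG, and an A after this match gives the 8-base form TGCACTGA. Both were sought on the transcript's strand in the annotated 3′UTRs of protein-coding transcripts (GENCODE M21, GRCm38), and the 8-base form contains the shorter one. The shorter match was present in 15.8% of the 15339 tested genes with an annotated 3′UTR and the 8-base form in 4.31%. It was found in 5 of the 6 genes, and these 5 also stand in the study's list of predicted miR-148a-3p targets. *Cpt1a* held no match in its annotated 3′UTR of 1892 bases and is not in that list. *Bcl2l11* held 4 matches over its transcript models, 2 of them of the 8-base form, and the other 4 genes held 1 each. The sites of *Bcl2l11*, *Ppargc1a* and *Gadd45a* are shown within 30 bases of 3′UTR, on the transcript's strand, with the match in capitals.
Bcl2l11 site 1: gcatggacagcgctcTGCACTGtgtcgatg
Bcl2l11 site 2: tctcgtgcgcttcacTGCACTGcggtggct
Bcl2l11 site 3: ttcttgtatctttgcTGCACTGAggaagga
Bcl2l11 site 4: gcttcctttacgtttTGCACTGAtgaattt
Ppargc1a: tttttgttacagctaTGCACTGtaaatgca
Gadd45a: ataactgaaccaaatTGCACTGAagttttg
In the order shown, the 4 windows of *Bcl2l11* lie at chr2:128158463-128158492, chr2:128159222-128159251, chr2:128131245-128131274 and chr2:128162394-128162423 on the plus strand. The window of *Ppargc1a* lies at chr5:51457003-51457032 and that of *Gadd45a* at chr6:67035613-67035642, both on the minus strand. Sites 1, 2 and 4 of *Bcl2l11* fell in its longest annotated 3′UTR of 4218 bases, and site 3 fell in that of another transcript model. The site of *Gadd45a* began 32 bases into its longest 3′UTR of 563 bases, whereas that of *Ppargc1a* began 1163 bases into 3930. The single matches of *Rock1* and *Camk2a* were of the shorter form and began 895 bases into a 3′UTR of 1647 and 1579 bases into one of 3372. A further 7-base form, GCACTGA, pairs with positions 2 to 7 and ends in A, and is not included in these counts. Outside the 8-base form it occurred at 1 place each in *Rock1* and *Bcl2l11*, and in none of the other genes. It was present in 13.6% of tested genes with a 3′UTR, the 8-base form included. Matches to the other inhibited microRNAs were found in 2 of the genes, namely 1 of the 8-base form for miR-181a-5p (TGAATGTA) in *Bcl2l11* and 1 of the shorter form for miR-146a-5p (AGTTCTC) in *Camk2a*. A match describes the annotated sequence and does not show that it is bound in CA1.

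**Figure D1:**
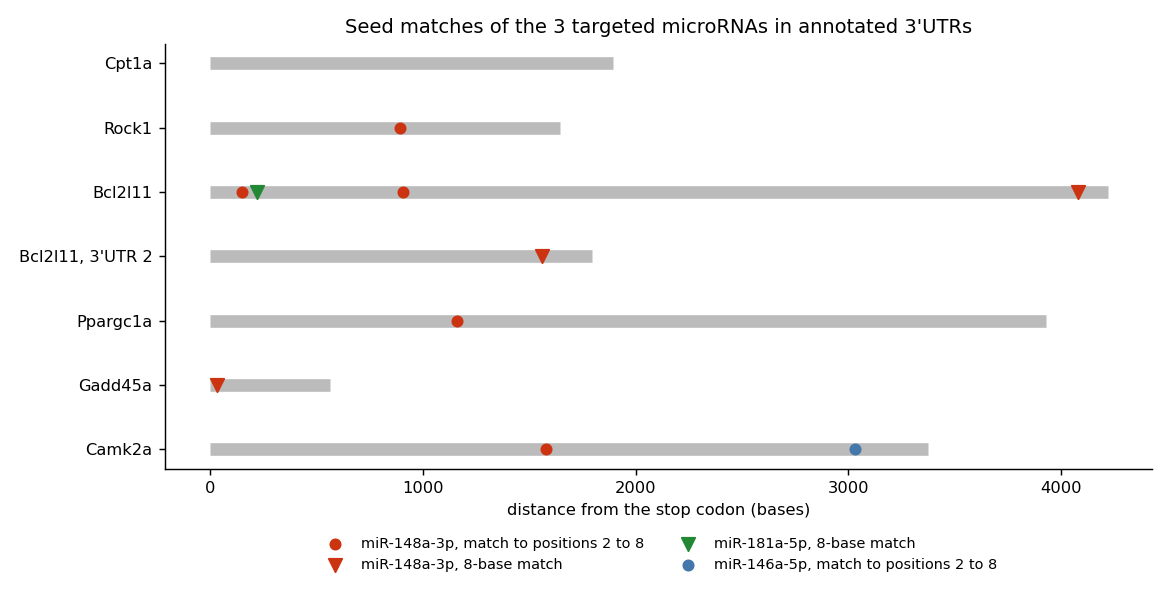
Grey bars are the longest annotated 3′UTR of each gene, with a second model for Bcl2l11 that holds a further match, and symbols mark where seed matches begin, as the distance in bases from the stop codon. The plot shows 3 miR-148a-3p matches in the longest Bcl2l11 3′UTR, 1 each in Rock1, Ppargc1a, Gadd45a and Camk2a, and none in Cpt1a.

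The libraries held between 26653511 and 38908947 reads assigned to genes. Every marker gene listed for CA1 pyramidal neurons was detected. In old control libraries their summed level had a median of 1086 CPM (reads scaled to the library total). The median there was 45.4 CPM for the markers of CA3 and 157 CPM for those of dentate granule cells. The CA1 markers had a median of 973 CPM in young and 969 CPM in old anti-miR-mix libraries. Their ranges were 891 to 1104 CPM in young, 926 to 1106 CPM in old control and 799 to 1108 CPM in old anti-miR-mix libraries. The part of these markers in the differences of *Camk2a* given below was not tested. Glial markers differed between the old groups. The summed level of 6 microglial markers, all detected in each group, ranged from 383 to 446 CPM in old control and from 438 to 585 CPM in old anti-miR-mix libraries, and was between 314 and 390 CPM in young ones. For 5 astrocyte markers the ranges were 1751 to 2070 CPM in old control, 1759 to 2461 CPM in old anti-miR-mix and 1490 to 1907 CPM in young libraries. For 5 oligodendrocyte markers they were 5225 to 6241 CPM in old control, 5285 to 7912 CPM in old anti-miR-mix and 6097 to 9335 CPM in young libraries. In bulk tissue a change in the number of cells of a type and a change in RNA per cell cannot be told apart. The authors' normalised values carried a number from 1 to 4 for each library, here called the processing group, whose origin is not described. None of the old controls and 3 of the old anti-miR-mix libraries were in group 3.

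Levels per length of transcript spanned a wide range among the 6 genes. As RPKM, the CPM divided by the kilobases of merged exons, the mean over 19 libraries was 449 for *Camk2a*, above 99.9% of the genes tested. It was 12.4 for *Ppargc1a*, 4.78 for *Cpt1a*, 2.71 for *Rock1*, 1.97 for *Gadd45a* and 0.913 for *Bcl2l11*. The value of *Rock1* is low in part by construction, since its merged exons of 18094 bases include models that retain introns. Read counts differed as widely. *Camk2a* was counted with 81030 to 151592 reads per library, *Ppargc1a* with 1981 to 3072, *Rock1* with 1165 to 2055 and *Cpt1a* with 921 to 1510. *Bcl2l11* had at most 315 reads per library and *Gadd45a* only 66 to 172. The coefficient of variation of CPM over all libraries was largest for *Gadd45a* (19.7%) and smallest for *Ppargc1a* (6.47%). The exons of *Gadd45a* also overlap those of *E230016M11Rik* on the opposite strand, which had a mean of 176 reads, and because the counting was not stated to use strand the reads of these 2 genes cannot be separated.

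**Figure D2:**
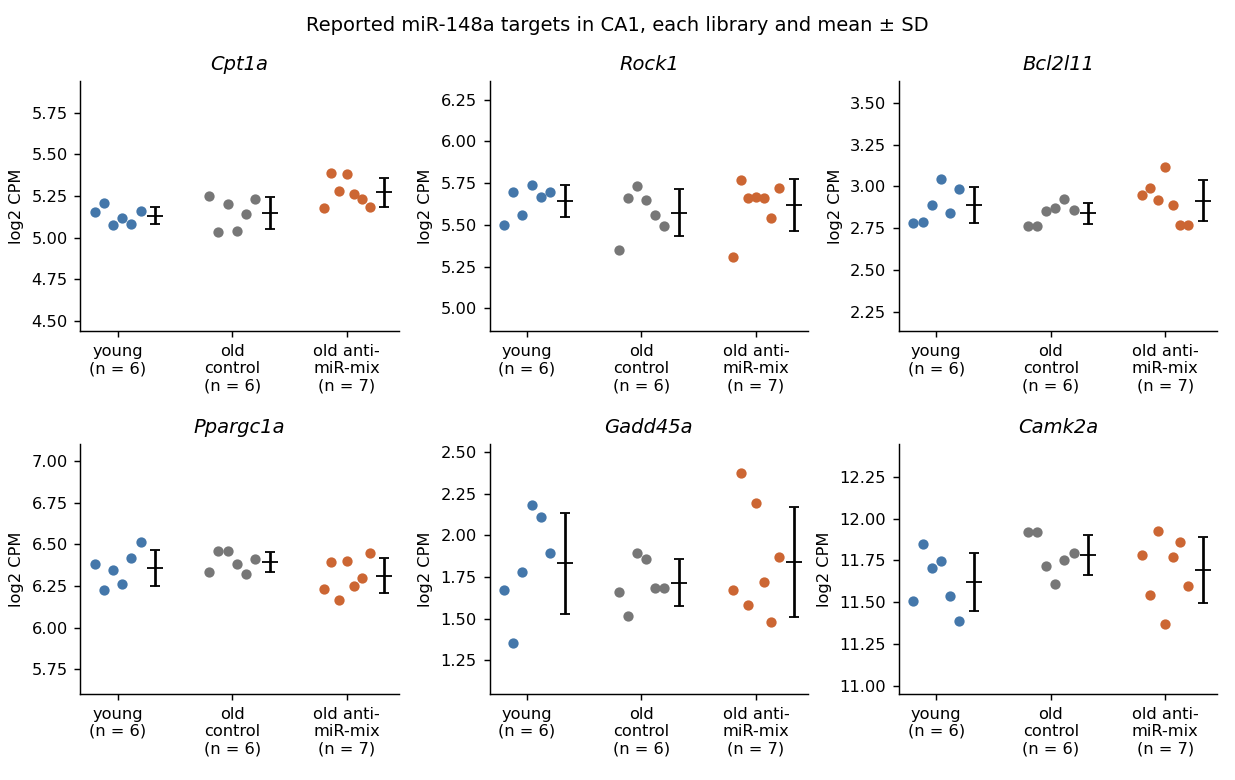
Each panel plots log2 CPM of 1 gene, with 1 point per library, and the black bar beside each group is its mean ± SD. All panels span the same 1.5 log2 units. The 3 groups overlap for every gene, and Cpt1a is the gene whose old anti-miR-mix libraries lie highest relative to both other groups.

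None of the 6 genes passed an adjusted p of 0.05 in old anti-miR-mix against old control, where 0.669% of all tested genes did so, all of them higher (edgeR's quasi-likelihood test, Benjamini-Hochberg adjustment over 19286 genes). The fitted difference was positive for 4 genes and negative for 2, against 50.2% positive among all genes. The median log2 fold change of the 6 was 0.06, and that of all genes was 0.00. At an unadjusted p under 0.05, 1 gene was called, *Cpt1a*, where the share among all genes was 10.5%. No gene had groups that did not overlap, against 0.498% of all genes.

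*Cpt1a* lies at chr19:3322334-3385733 on the plus strand. Its level had a lowest, median and highest value of 5.03, 5.17 and 5.25 log2 CPM in old control libraries. In old anti-miR-mix libraries these were 5.18, 5.26 and 5.39, and in young libraries 5.07, 5.14 and 5.21. All 7 old anti-miR-mix libraries lay above the old control mean and 4 above every old control, so the groups overlapped. The log2 fold change against old control was 0.12 ± 0.045 (SE), or 1.09-fold with a 95% interval from 1.02 to 1.16. The p was 0.0136 before and 0.308 after edgeR's adjustment over all genes, and an exact two-sided permutation test on log2 CPM gave p = 0.0408, which is not adjusted for the 6 genes. Under the 30 alternative settings the adjusted p lay between 0.211 and 0.856 and the log2 fold change between 0.10 and 0.14. Within processing groups 1, 2 and 4 the difference in log2 CPM was 0.03, 0.17 and 0.04, each from 3 or 4 libraries, too few for a test. The glial marker levels given above moved in the same direction as *Cpt1a*, and their part in its difference was not tested. *Cpt1a* had the lowest p of the 6 and held no miR-148a seed match in its annotated 3′UTR. Whether the 2 are related was not tested.

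*Bcl2l11*, with 4 sites, lies at chr2:128126038-128162547 on the plus strand. Its lowest, median and highest values were 2.76, 2.86 and 2.92 log2 CPM in old control libraries. They were 2.77, 2.92 and 3.12 in old anti-miR-mix and 2.78, 2.86 and 3.04 in young libraries. The treated libraries thus reached higher in 3 of 7 cases and otherwise lay among the controls. The log2 fold change was 0.08 ± 0.066 (SE), with an interval from 0.96-fold to 1.16-fold (edgeR adjusted p = 0.729). The estimate was 0.04 without old anti-miR-mix replicate 4 and 0.03 with the processing group as a factor.

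*Gadd45a*, with an 8-base site close to its stop codon, lies at chr6:67035096-67037457 on the minus strand. It spanned 1.52 to 1.90 log2 CPM with a median of 1.68 in old control libraries. The span was 1.48 to 2.37 with a median of 1.72 in old anti-miR-mix, and 1.35 to 2.18 with a median of 1.84 in young libraries. Old controls therefore lay closest together, inside the span of both other groups. The log2 fold change was 0.15 ± 0.15 (SE, edgeR adjusted p = 0.781), the least precise estimate of the 6. Its interval ran from 0.90-fold to 1.37-fold. The estimate was 0.05 without old anti-miR-mix replicate 2, 0.09 without old anti-miR-mix replicate 4 and 0.09 with the processing group as a factor.

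*Rock1* lies at chr18:10064401-10182045 on the minus strand. Its lowest, median and highest values were 5.35, 5.60 and 5.73 log2 CPM in old control libraries. The values were 5.31, 5.66 and 5.77 in old anti-miR-mix and 5.50, 5.68 and 5.74 in young libraries. Old control and treated libraries covered nearly the same range. The log2 fold change was 0.05 ± 0.067 (SE), with an interval from 0.94-fold to 1.14-fold (edgeR adjusted p = 0.869). The estimate was 0.0041 without old control replicate 1, 0.09 without old anti-miR-mix replicate 1 and -0.0030 with the processing group as a factor, so its sign was not settled.

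The remaining pair had lower fitted levels after treatment. *Ppargc1a*, at chr5:51454250-51567726 on the minus strand, had a lowest, median and highest value of 6.33, 6.40 and 6.46 log2 CPM in old control libraries. The values were 6.17, 6.30 and 6.45 in old anti-miR-mix and 6.22, 6.36 and 6.51 in young libraries. No treated library exceeded the highest old control. The log2 fold change was -0.08 ± 0.049 (SE), and the interval reached from 0.88-fold to 1.02-fold (edgeR adjusted p = 0.597). The estimate was -0.05 with the processing group as a factor.

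*Camk2a*, at chr18:60925618-60988152 on the plus strand, had 11.61, 11.77 and 11.92 log2 CPM as its lowest, median and highest value in old control libraries. The values were 11.37, 11.77 and 11.93 in old anti-miR-mix and 11.39, 11.62 and 11.85 in young libraries. The medians of the old groups were equal to the second decimal, and the treated group reached lower. The log2 fold change was -0.08 ± 0.085 (SE), with an interval from 0.84-fold to 1.07-fold (edgeR adjusted p = 0.798). The estimate was -0.13 without old anti-miR-mix replicate 3 and -0.04 without old anti-miR-mix replicate 4. Among the 6 genes, the upper end of the 95% interval was highest for *Gadd45a* and did not exceed 1.16-fold for the other 5.

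**Figure D3:**
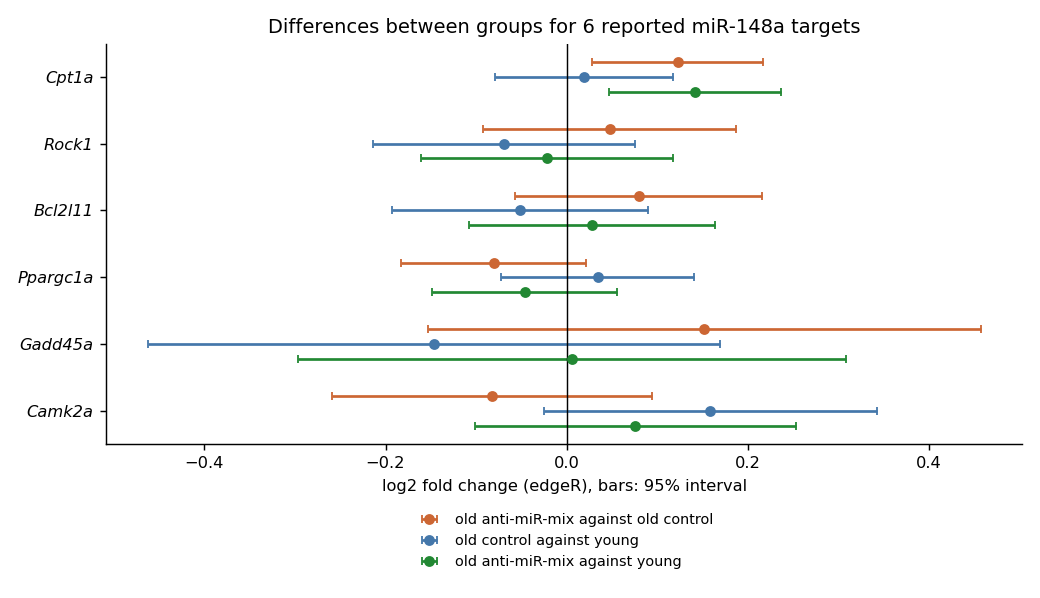
Points are log2 fold changes fitted by edgeR for each gene, bars are 95% intervals, and colours stand for the 3 comparisons. For old anti-miR-mix against old control, the interval of Cpt1a (0.03 to 0.22) lies above 0 and the other 5 include 0, and Gadd45a has the widest interval (-0.15 to 0.46).

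Age was compared in the 2 groups that received control oligonucleotides. These also differed in processing group, since group 3 held 2 young libraries and no old control. None of the 6 genes was called in old control against young, where 2.67% of all genes were called (edgeR, adjusted p under 0.05). None had an unadjusted p under 0.05 either, against 18.1% of all genes. *Camk2a* had the largest positive estimate, a log2 fold change of 0.16 ± 0.088 (SE) or 1.12-fold with an interval from 0.98 to 1.27 (edgeR adjusted p = 0.353). The exact permutation p of *Camk2a* was 0.0909, and 5 of 6 old controls lay above the young mean. *Gadd45a* had an estimate of -0.15 ± 0.15 (SE, edgeR adjusted p = 0.664), which was -0.06 without young replicate 4 and -0.09 without young replicate 5. The estimate was positive for 3 of the 6 genes, beside 52.2% of all genes, and no gene had groups that did not overlap, beside 2.54%. The log2 fold changes of *Rock1* and *Bcl2l11* were -0.07 and -0.05, and those of *Ppargc1a* and *Cpt1a* were 0.03 and 0.02. The median of the 6 was -0.02, beside 0.01 for all genes.

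Old anti-miR-mix was also compared with young. This comparison shares the treated libraries with the first and the young libraries with the second, so the 3 sets of values are not independent. None of the 6 genes was called, against 6.2% of all genes, and 1 had an unadjusted p under 0.05, against 19.6%. The estimate was positive for 4 genes, beside 51% of all genes, and no gene had groups that did not overlap, beside 2.42%. *Cpt1a* was again the gene with the lowest p, with a log2 fold change of 0.14 ± 0.045 (SE) or 1.10-fold with an interval from 1.03 to 1.18. Its p was 0.00519 before and 0.0694 after edgeR's adjustment, and the exact permutation p was 0.00699. All 7 treated libraries lay above the young mean of *Cpt1a* and 5 lay above every young library. *Cpt1a* passed the threshold in 2 of the 30 alternative settings, without young replicate 2 (edgeR adjusted p = 0.0462) and without old anti-miR-mix replicate 1 (edgeR adjusted p = 0.0412). The microglial markers also lay higher in every treated library than in any young one, and their part in this difference was not tested. The other 5 genes had log2 fold changes between -0.05 and 0.08, with edgeR adjusted p values from 0.672 to 0.991. For *Cpt1a* the order of the group means was thus old anti-miR-mix, old control and young, in which old control and young differed by 0.02 log2 CPM, less than the spread within either group. For each of the other 5 genes, neighbours in the order of means differed by less than the larger of their SDs.

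The 6 genes did not vary as a unit across libraries. Of their 15 pairs, 2 had a Pearson correlation with an adjusted permutation p under 0.05 over the 19 libraries (100000 permutations, Benjamini-Hochberg over 15 pairs). *Gadd45a* and *Camk2a* were inversely related, with r = -0.68 (permutation p = 0.00139, adjusted p = 0.0139) and a Spearman rank correlation of -0.78 (permutation p = 0.00016, adjusted p = 0.0024). Without the 2 libraries farthest from the median of *Gadd45a*, r was -0.59. With the means of the experimental and processing groups removed it was -0.70. *Bcl2l11* and *Gadd45a* varied in the same direction, with r = 0.67 (permutation p = 0.00185, adjusted p = 0.0139) and a Spearman rank correlation of 0.56 (permutation p = 0.0137, adjusted p = 0.0683). Without the 2 libraries farthest from the median of *Bcl2l11*, r was 0.51. It was 0.65 with the means of the experimental groups removed and 0.68 with those of the processing groups removed as well. *Rock1* and *Gadd45a* passed by rank only, with a Spearman rank correlation of 0.62 (permutation adjusted p = 0.0397) and r = 0.45 (permutation adjusted p = 0.158). Each processing group held at most 5 libraries, too few for a correlation of its own. Both values of a pair come from the same RNA, and the count of *Gadd45a* may be altered by its antisense neighbour, which was not tested.

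**Figure D4:**
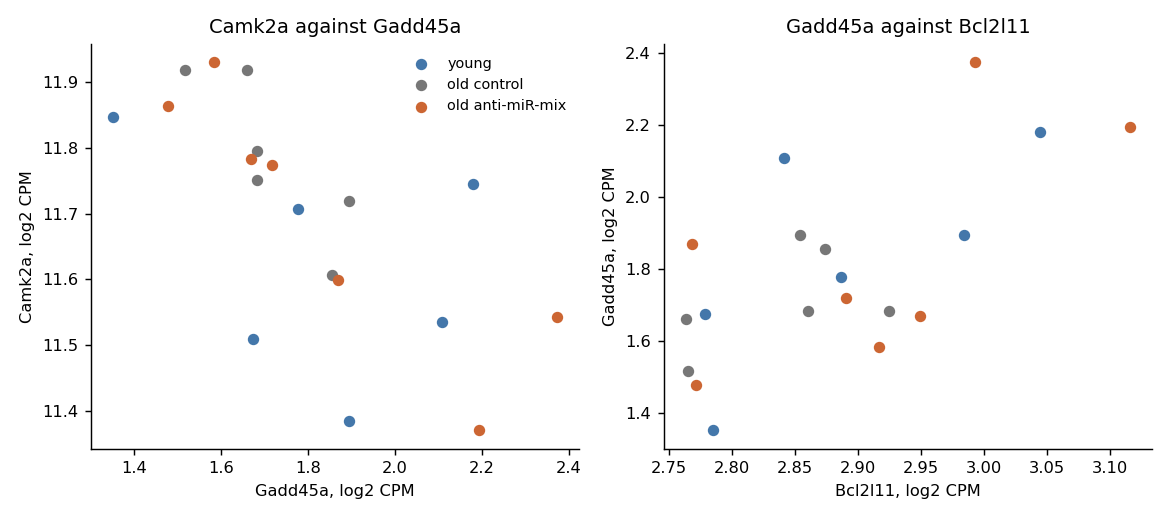
Each point is 1 of 19 libraries, coloured by group, with log2 CPM of one gene on each axis. Camk2a falls as Gadd45a rises across libraries (left, r = -0.68), and Gadd45a and Bcl2l11 rise together (right, r = 0.67), with the 3 groups intermixed in both panels.

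Genes whose profile over the 19 libraries was most like each of the 6 were sought among 15960 genes with a mean of at least 20 reads. For *Camk2a* they were *Ddn*, which encodes the postsynaptic protein dendrin (r = 0.97), *Cttn*, which encodes the actin-binding protein cortactin (r = 0.96), and the kinase gene *Mink1* (r = 0.96). *Rock1* was most like *Gm43980* (r = 0.93), *Picalm*, which acts in clathrin-mediated endocytosis (r = 0.90), and *Zfp420* (r = 0.89). *Ppargc1a* was most like ENSMUSG00000102426 (r = 0.89), *Leo1* (r = 0.88) and the neuronal RNA-binding protein gene *Elavl4* (r = 0.88). The closest to *Gadd45a* were *Carmil1*, *Cyb5a* and the stearoyl-CoA desaturase gene *Scd1*, each with r = 0.88. The closest to *Cpt1a* were *Mettl21a* (r = 0.85), *Map3k1* (r = 0.80) and the glutamine transporter gene *Slc38a3* (r = 0.80). *Bcl2l11* had the weakest best match, *Rassf5*, beside *Bambi* and *Magt1* (each r = 0.78). No gene was among the closest of 2 members.

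Of 9 paralogs of the 6 genes, 8 could be tested, *Cpt1b* being too low, and none passed an adjusted p of 0.05 in any of the 3 comparisons. At an unadjusted p under 0.05, 0 passed under treatment, 1 with age (*Camk2g*) and 1 against young (*Rock2*). Among all genes 10.5%, 18.1% and 19.6% did so, in the same order. The shares of all genes past an adjusted p of 0.05 were 0.669%, 2.67% and 6.2%. Against young, *Rock2* was called in 4 and *Gadd45b* in 1 of the 30 alternative settings. *Rock2*, the paralog of *Rock1*, had a log2 fold change of -0.08 against old control (edgeR adjusted p = 0.529) and of -0.13 against young (edgeR adjusted p = 0.0683). *Ppargc1b* had -0.10 and *Cpt1c* -0.01 against old control. *Gadd45b* had 0.10 and *Gadd45g* 0.05. The other subunit genes of the kinase had -0.07 for *Camk2b*, 0.04 for *Camk2d* and 0.07 for *Camk2g*. With age *Camk2g* had a log2 fold change of -0.17 (edgeR adjusted p = 0.180).

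The pathways around the 6 genes were followed through 6 lists, which leave out the 6 genes themselves. In old anti-miR-mix against old control none of the genes tested in any list was called, beside 0.669% of all genes. Among 25 other reported targets of miR-148, of which 16 held a seed match, the median log2 fold change was 0.00 and 12 were fitted higher. The lowest p belonged to *Abca1*, which exports cholesterol to lipoproteins and holds a seed match. It ranged from 6.12 to 6.32 log2 CPM in old control and from 6.19 to 6.83 in old anti-miR-mix libraries, with a log2 fold change of 0.31 ± 0.074 (SE, edgeR adjusted p = 0.0572). *Abca1* was called in 5 of 30 alternative settings, with adjusted p values from 0.00562 to 0.724. *Runx3*, a transcription factor gene without a match, had 1.36 (edgeR adjusted p = 0.184) at no more than 25 reads per library.

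In the carnitine shuttle and fatty acid oxidation list around *Cpt1a*, 14 of 18 genes were fitted higher, with a median of 0.04. *Cpt2*, which encodes the carnitine palmitoyltransferase of the inner mitochondrial membrane, had 0.22 (edgeR adjusted p = 0.167), and *Hadh*, of the β-oxidation cycle, had 0.15 (edgeR adjusted p = 0.160). Of 13 BCL-2 family genes, 11 were fitted higher, with a median of 0.08. The BH3-only genes *Pmaip1* and *Bmf* had 0.41 (edgeR adjusted p = 0.270) and 0.31 (edgeR adjusted p = 0.398).

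Of the 14 genes of PGC-1 and mitochondrial biogenesis, 7 were fitted higher, with a median of 0.00. *Tfam*, which maintains mitochondrial DNA, had -0.06 and the nuclear receptor gene *Esrrg* -0.09 (edgeR adjusted p = 0.568 and 0.639). Of 12 GADD45 and p53 genes, 11 were fitted higher, with a median of 0.05. The cell cycle inhibitor gene *Cdkn1a* had 0.51 (edgeR adjusted p = 0.245) and *Gadd45gip1*, whose product binds GADD45 proteins, had 0.17 (edgeR adjusted p = 0.340). Of 17 genes of CaM kinases and calmodulin, 7 were fitted higher, with a median of -0.04. *Camk1d* and the calmodulin gene *Calm2* both had -0.10 (edgeR adjusted p = 0.458 and 0.508). These counts are read beside the 50.2% of all genes fitted higher, and members of a pathway can vary together, so they carry no test.

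**Figure D5:**
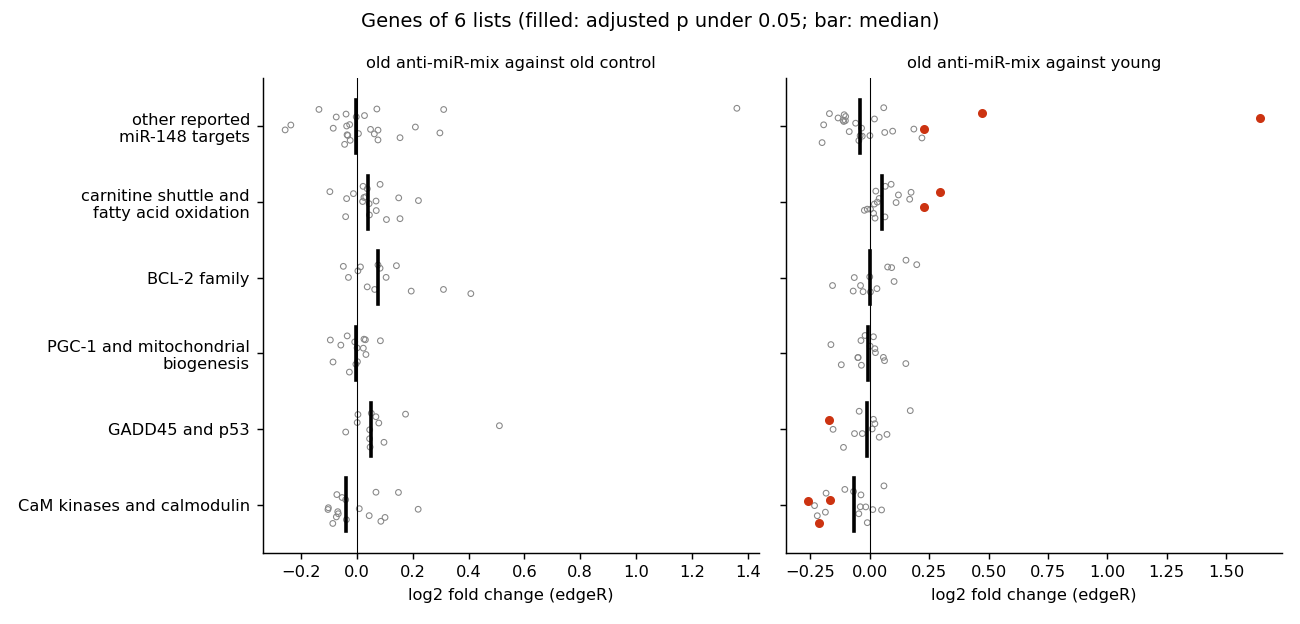
Each symbol is 1 gene of the 6 lists, placed by its edgeR log2 fold change in old anti-miR-mix against old control (left) or against young (right), the black bar is the list's median, and filled symbols passed an adjusted p of 0.05. No symbol is filled on the left, and 9 are filled on the right.

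In old control against young, 4 of the 99 genes tested in these lists were called, all lower (4.04%, beside 2.67% of all genes). *Ikbkb*, the IκB kinase β gene and a reported miR-148 target, fell by 0.16 on the log2 scale (edgeR adjusted p = 0.0384). *Foxo3*, a stress-response transcription factor gene with a seed match, fell by 0.22 (edgeR adjusted p = 0.00999), and *Sesn1*, a p53 target gene, by 0.16 (edgeR adjusted p = 0.0408). *Camk2n1*, whose product inhibits the kinase that *Camk2a* encodes, fell by 0.30 (edgeR adjusted p = 0.0174). It ranged from 9.20 to 9.32 log2 CPM in old control and from 9.42 to 9.81 in young libraries, without overlap. No gene of the carnitine, BCL-2 or PGC-1 lists was called with age. With the processing group as a factor, *Ikbkb* (adjusted p = 0.0825) and *Sesn1* (adjusted p = 0.0603) were no longer called by edgeR, and over the 30 alternative settings *Ikbkb* was called in 15, *Sesn1* in 14, *Foxo3* in 29 and *Camk2n1* in 28. Compared with young, the median of the oligodendrocyte markers was lower in old control (5537 against 6832 CPM) and that of the microglial markers was higher (406 against 367 CPM), and their part in these differences was not tested.

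In old anti-miR-mix against young, 9 of the 99 genes tested in the lists were called (9.09%, beside 6.2% of all genes), of which 8 are described. *Abca1* rose by a log2 fold change of 0.47 (edgeR adjusted p = 0.000374) and *Runx3* by 1.64 (edgeR adjusted p = 0.0265). *Cpt2* rose by 0.23 (edgeR adjusted p = 0.0441) and the acyl-CoA dehydrogenase gene *Acads* by 0.30 (edgeR adjusted p = 0.0356). *Foxo3* fell by 0.17 (edgeR adjusted p = 0.0151). Around *Camk2a*, *Camk4* fell by 0.26 (edgeR adjusted p = 0.00766), *Camkk2*, which encodes a kinase upstream of it, by 0.17 (edgeR adjusted p = 0.0376) and *Camk2n1* by 0.22 (edgeR adjusted p = 0.0444). *Abca1* and *Camk4* passed in all 30 alternative settings, and the other 6 described in 8 to 29 of the settings in which they could be tested. With the processing group as a factor, *Cpt2* (adjusted p = 0.0665) and *Camk2n1* (adjusted p = 0.0603) were no longer called by edgeR. The microglial markers ranged from 438 to 585 CPM in these treated libraries and from 314 to 390 CPM in young ones, and their part in these differences was not tested.

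The study's wider list of predicted miR-148a-3p targets, to which 5 of the 6 genes belong, gave 628 tested genes. In old anti-miR-mix against old control 2 of them were called, both higher, or 0.318% against 0.669% of all genes. The median log2 fold change was -0.02 and 40.8% were fitted higher. The called genes were *Rab7b*, which encodes a late endosomal GTPase, with a log2 fold change of 1.09 (edgeR adjusted p = 0.0413), and *Pbxip1*, which encodes a PBX-interacting protein, with 0.22 (edgeR adjusted p = 0.0259). Both hold a seed match, of the 8-base form in *Rab7b*. *Rab7b* had 28 to 72 reads in old control and 45 to 157 in old anti-miR-mix libraries. With the processing group as a factor *Pbxip1* was no longer called by edgeR (adjusted p = 0.204). The calls held in 16 and 18 of the 30 alternative settings, with adjusted p values up to 0.128 for *Rab7b* and 0.447 for *Pbxip1*. The glial marker levels given above also differed between these groups, and their part in these calls was not tested. Taking all 2427 tested genes with the seed match in a 3′UTR, 0.700% were called, all higher, with a median of -0.01, beside 0.852% and a median of 0.00 among 12912 genes with a 3′UTR and no match.

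With age, 4 predicted targets were called higher and 16 lower in old control. The higher ones were *Six4* (0.51), *Tpbgl* (0.36), *Zfp110* (0.22) and *Peak1* (0.22), given as log2 fold changes. Those with the largest decreases were *Casr*, the calcium-sensing receptor gene (-1.76), *Hcrtr1*, an orexin receptor gene (-0.95), *Klf4* (-0.91) and *Fnbp1l* (-0.41). *Casr* had only 3 to 8 reads per library in old control and 11 to 27 in young. With the processing group as a factor, *Six4* (adjusted p = 0.0743), *Peak1* (adjusted p = 0.117) and *Klf4* (adjusted p = 0.122) were no longer called by edgeR. They were called in 22, 14 and 11 of the 30 alternative settings, and *Fnbp1l* was called in 17. *Hcrtr1* and *Fnbp1l* hold no seed match in an annotated 3′UTR. In old anti-miR-mix against young, 24 were called higher and 23 lower. The largest increases were in *Wdfy4* (0.82), *Hhex* (0.73), *Col2a1* (0.71) and *Tnfrsf1b*, a tumour necrosis factor receptor gene (0.70). The largest decreases were in *Casr* (-1.01), *Hcrtr1* (-0.62), *Fnbp1l* (-0.34) and *Pik3r3* (-0.27). Of these 8, *Hcrtr1* was no longer called by edgeR with the processing group as a factor (adjusted p = 0.0508). Against young, *Hcrtr1* was called in 17 and *Fnbp1l* in 15 of the 30 alternative settings. The microglial markers ranged from 438 to 585 CPM in these treated libraries and from 314 to 390 CPM in young ones. Their part in the differences of predicted targets was not tested. The share called was 3.18% with age and 7.48% against young, beside 2.67% and 6.2% of all genes. By direction, all genes were called higher and lower at 1.32% and 1.34% with age, and at 4.57% and 1.63% against young.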

How the data were processed

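Groups were taken from the description the submitters gave each library. For each library the authors deposited raw counts per Ensembl gene, and for the series a table of log2 values. Per the study's methods and the submitters' processing notes, polyadenylated RNA libraries (TruSeq RNA v2 kit) were sequenced as single-end reads of 50 bases, aligned to mm10 (GRCm38) with STAR 2.5.2b and counted with featureCounts of Subread 1.5.1. Strand and multi-mapping options are not given in the sources used here. The log2 values that the authors deposited equal log2(CPM + 1) less the product of a slope for each gene and a whole number for each library (deviation at most 3.4e-08). That number, here the processing group, ran from 1 to 4. Groups 1 and 2 each held 2 old controls, with 1 young each and with 1 and 2 treated libraries. Group 3 held 2 young and 3 treated libraries, and group 4 held 2 young, 2 old control and 1 treated.

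A gene was tested if 50% or more of the libraries had 5 reads or more. Tests used edgeR 4.0.16 (TMM, quasi-likelihood test, R 4.3.3), with the 3 groups in one fit, two-sided, and Benjamini-Hochberg adjustment at 0.05 over all 19286 genes. The scripts were tested on simulated data. Summed marker CPM used the plain library total. For single genes, CPM, RPKM and log2 CPM used the total over tested genes scaled by the TMM factor. Log2 CPM used a prior count of 2. Exact permutation tests covered all 924 or 1716 arrangements of libraries. Symbols and coordinates came from GENCODE M21, which matched 48349 of 48709 identifiers. The 6 genes and all lists were chosen with earlier results of these data known. Genes named beyond the 6 were their paralogs, the 3 most alike by correlation, up to 4 called genes per list and comparison by lowest p, the 2 with the lowest p under treatment where none was called, and up to 4 predicted targets per direction by fold. The results of 1 gene that this rule named and of 1 list are not reported here. Of the 643 predicted target names read, 642 matched, and 2 further names turned into dates were left out. Alternatives were another size factor, DESeq2 1.42.0 (the study's tool), limma 3.58.1 on the deposited log2 values, other filters, each library left out, processing group or replicate number in the model, and old control replicates 5 and 6 as 1 library. Counts of those 2 replicates differed by a chi-square of 2.18 per degree of freedom, against 6.10 or more for other pairs, which exceeds counting noise but does not show whether they came from separate animals. They were kept apart as labelled, and merged as an alternative. P values set a difference between groups against the spread between these samples, which may in part be technical.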

Additional observations from a re-analysis of the deposited data

How the results depend on the processing

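The 6 genes were refitted under 30 alternative settings in 3 comparisons, 540 fits in all. Of these, 524 kept the direction and the side of the threshold, 14 changed the sign of an estimate near 0 and 2 passed the threshold. The cause of these changes was not tested. In old anti-miR-mix against old control, *Rock1* changed sign with the processing group as a factor (log2 fold change -0.0030) and with this and old control replicates 5 and 6 as 1 library (-0.013). Against young, *Gadd45a* changed sign with at least 10 reads required (-0.0069), with the processing group as a factor (-0.030) and with the replicates merged as well (-0.028). Leaving out 1 library each gave *Gadd45a* -0.096 to 0.087, *Rock1* -0.047 to 0.028 and *Bcl2l11* -0.012 to 0.065 against young, and *Cpt1a* -0.0022 to 0.043 with age. The number of the 6 called against young was 0 to 1 when 1 library was left out, and it was 0 for the other comparisons under every setting.

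The number of all genes called was less stable. Under treatment it was 129, and it became 267 with DESeq2, 48 with only these groups in the fit, 9 with the processing group as a factor, 33 with old control replicates 5 and 6 merged and 6 with both. With age it was 514, and it became 914 with DESeq2, 323 with no filter, 305 with the replicates merged and 223 with that and the processing group. Leaving out 1 library gave 23 to 247 under treatment, 212 to 691 with age and 892 to 1256 against young, where the full set gave 1196. Whether the replicate numbers pair the libraries was not settled. Same-numbered pairs had deviations correlated between -0.17 and 0.21 (median 0.05, 6 of 18 over 0.1). For differently numbered pairs the correlations lay between -0.27 and 0.39 (median -0.01, 15 of 102 over 0.1). With the replicate number as a block, 249 genes were called under treatment and none of the 6 changed its call. Taking only the longest 3′UTR left 3 *Bcl2l11* matches in place of 4. Depth limited *Gadd45a* most, at 66 to 172 reads per library.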
